A study of Mus musculus with 6 samples.

Results

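Transcript levels of the Src family and related tyrosine kinases were examined in embryonic mouse fibroblasts with and without a deletion of exon 2 of Cas (p130Cas, gene symbol Bcar1). The kinases were Src, Fyn, Yes1, Lyn and Fgr, their inhibitory kinase Csk, the Abl kinases Abl1 and Abl2, and Ptk2b, which encodes Pyk2. Every array feature annotated to 1 of these symbols was taken, which gave 19 of the 45101 probe sets (groups of short probes that match a transcript) for 8 of the 9 genes. Lyn was not analysed here. Yes1 had 4 probe sets, Abl1 and Abl2 had 3 each, Src, Fyn, Fgr and Ptk2b had 2 each, and Csk had 1.

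The cultures came from 3 genotypes with 2 embryos each, homozygous for the deletion (Cas exon 2∆/∆), heterozygous (Cas exon 2+/∆) and wild type (Cas exon 2+/+). The strain was given as B6, except for wild-type culture 1, for which the labels give no strain. All embryos came from crosses between heterozygotes, were taken at 12.5 days post coitum (dpc), and lost their heads and inner organs before the cells were cultured in medium with 10% fetal calf serum. The deletion is present from the germ line and in every cell, and each array holds RNA of 1 embryo's mixed culture. A p-value here thus reflects the spread between such cultures, in which embryo, culture, labelling and array cannot be told apart.

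Src family kinases are membrane-anchored tyrosine kinases that are held inactive by phosphorylation of a tyrosine in their C-terminal tail, which Csk places there. In fibroblasts, engagement of integrins activates Src, Fyn and Yes, which together with focal adhesion kinase or Pyk2 phosphorylate the docking protein Cas, and Cas then recruits the adaptor Crk. Exon 2 of Cas encodes its SH3 domain, by which Cas binds focal adhesion kinase and Pyk2. The Abl kinases phosphorylate Crk and link adhesion to the actin cytoskeleton. Activity of all these kinases is set largely after translation, which an expression array does not measure.

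The members differ in the sequence around their transcription starts. RefSeq starts (GRCm38.p6) with 250 bases before and 50 after were held for 7 of the 9 genes. Most of them are rich in CG dinucleotides, a feature common at broadly used genes, and Src, which nearly all cells express, and Fgr, which is known from myeloid cells, are printed because they lay at opposite ends among genes with a single listed start. CG dinucleotides are in capitals (the motif CG reads the same on both strands), and the sequences run 5′ to 3′ on the gene's strand.
Src: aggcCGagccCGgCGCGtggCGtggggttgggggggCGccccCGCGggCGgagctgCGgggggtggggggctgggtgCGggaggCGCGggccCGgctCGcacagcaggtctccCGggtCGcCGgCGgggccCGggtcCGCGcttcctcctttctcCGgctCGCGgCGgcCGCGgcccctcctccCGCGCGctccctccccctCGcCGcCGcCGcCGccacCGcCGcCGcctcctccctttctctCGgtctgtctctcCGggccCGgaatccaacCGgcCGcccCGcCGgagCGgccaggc
Fgr: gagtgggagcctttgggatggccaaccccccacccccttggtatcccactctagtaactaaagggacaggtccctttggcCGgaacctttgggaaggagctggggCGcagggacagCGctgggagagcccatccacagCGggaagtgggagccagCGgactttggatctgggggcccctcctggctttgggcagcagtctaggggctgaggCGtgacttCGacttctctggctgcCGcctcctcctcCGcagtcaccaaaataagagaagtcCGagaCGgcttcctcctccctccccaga
The Src stretch (chr2:157424043-157424342, + strand) held 47 CG dinucleotides, a number reached by 1.44% of the 32851 promoters in the RefSeq table. The Fgr stretch (chr4:132973845-132974144, + strand) held 11, which 41.4% of promoters reached, where the median promoter held 7. Yes1 held 42, Fyn and Abl2 held 31 each, the listed starts of Abl1 held 23 and 20, and those of Csk held 24 and 9. These counts describe the sequence alone, since the arrays do not show which start was used.

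Deposited intensities were on a linear scale, with medians of 21.9 to 27.3 on the 6 arrays, and levels below are log2 intensities after quantile normalization. Levels of different probe sets are not compared with each other, since probes differ in brightness. All 10 fibroblast markers passed the intensity filter (a mean level of at least 4.57, which keeps the brighter 50% of probe sets). They were not equally even, from Vim at 13.68 to 13.81 to Lum at 7.39 to 12.3, lowest in wild-type culture 1. The targeted gene itself was at 8.08 and 8.43 in homozygotes, 8.19 and 8.32 in heterozygotes, and 9.37 and 8.42 in wild type, and whether its probes lie in exon 2 is not stated in the labels or tables. Xist, the X-inactivation RNA, was at 3.70 and 5.31 in homozygotes, 10.27 and 10.29 in heterozygotes, and 8.82 and 4.23 in wild type, so embryo sex and genotype cannot be told apart between homozygotes and heterozygotes. Macrophage markers were also uneven, with 17 of the 19 past the filter, none of the markers listed at 0, and summed deposited intensities of 8610 to 17489 in homozygotes, 6275 to 6454 in heterozygotes, and 3723 to 7992 in wild type. In such mixed cultures, fewer cells of a type and less RNA per cell cannot be told apart.

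Src, the founding member of the family, was represented by a pair of probe sets, and neither separated homozygotes from the other genotypes. The brighter (1450918_s_at, a type that can match transcripts of several genes) was at 6.96 and 6.88 in homozygotes, 6.81 and 7.48 in heterozygotes, and 7.36 and 7.03 in wild type. Both homozygotes lay below both wild types but inside the range of the heterozygotes. The second (1423240_at) was at 5.02 and 5.97 in homozygotes, 5.44 and 5.56 in heterozygotes, and 6.12 and 6.07 in wild type. Here the wild types were the highest arrays, and the homozygotes differed more from each other than the genotype means did.

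Fyn, which shares adhesion signalling with Src and also acts in neurons and lymphocytes, was highest in wild-type culture 1 by both probe sets. Probe set 1417558_at was at 7.46 and 8.05 in homozygotes, 7.59 and 7.84 in heterozygotes, and 8.54 and 7.79 in wild type. Probe set 1448765_at was at 7.37 and 7.59 in homozygotes, 6.61 and 7.54 in heterozygotes, and 8.54 and 7.15 in wild type. The genotypes overlapped for both, and the wild-type cultures differed by 1.39 on the log2 scale in the second.

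Yes1, the third widely expressed Src family kinase, had its highest arrays in heterozygotes by both tested probe sets. The brightest (1449090_a_at, a type that matches several transcripts of 1 gene) was at 7.20 and 6.92 in homozygotes, 7.21 and 7.35 in heterozygotes, and 7.19 and 6.84 in wild type. Probe set 1418470_at was at 4.45 and 4.89 in homozygotes, 5.10 and 4.93 in heterozygotes, and 4.68 and 4.32 in wild type. Both thus had the heterozygotes above the other 4 arrays, in the first by a narrow margin, with 7.21 in the lower heterozygote and 7.20 in the next array. This separation, picked out after the values were seen, was found in 2 of the 14 tested kinase probe sets and in 5.38% of all tested probe sets, and the reverse in 0 of the 14 and 5.28% of all. The remaining pair (1456843_at and 1458878_at) lay below the filter, between 1.65 and 4.31, with homozygous culture 1 the lowest array in both.

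Fgr, the member known from myeloid cells, lay at the edge of the filter. Its tested probe set (1419526_at) was at 4.41 and 5.11 in homozygotes, 5.09 and 4.10 in heterozygotes, and 5.05 and 4.23 in wild type. The other (1442804_at), below the filter, was at 3.59 and 4.55 in homozygotes, 3.57 and 4.94 in heterozygotes, and 4.12 and 3.39 in wild type. Each genotype had a high and a low culture, and the 2 probe sets did not rank the cultures alike.

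Csk, the kinase that inhibits the Src family, was at 7.16 and 7.55 in homozygotes, 7.72 and 7.17 in heterozygotes, and 7.30 and 7.50 in wild type (1423518_at). Its genotype means spanned 0.09 on the log2 scale, the smallest span among the 14 tested probe sets, against a difference of up to 0.55 between cultures of a genotype.

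Abl1, which shuttles between nucleus and cytoplasm, was at 8.89 and 8.56 in homozygotes, 8.61 and 8.52 in heterozygotes, and 8.67 and 8.96 in wild type (1423999_at). Both heterozygotes lay below both wild types, and the homozygotes overlapped with each. A dimmer Abl1 probe set (1444134_at) was at 4.51 and 4.80 in homozygotes, 4.97 and 4.90 in heterozygotes, and 5.41 and 3.70 in wild type. Its wild-type cultures differed by 1.70, the widest gap of any tested kinase probe set. The last Abl1 probe set (1441291_at) lay below the filter, at 1.34 to 3.79.

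Abl2, the cytoplasmic Abl kinase that binds actin filaments, was again highest in wild-type culture 1. Probe set 1455495_at was at 7.73 and 7.47 in homozygotes, 7.15 and 7.98 in heterozygotes, and 8.43 and 7.46 in wild type. Probe set 1455682_at was at 6.60 and 6.51 in homozygotes, 6.71 and 7.0 in heterozygotes, and 7.49 and 6.56 in wild type. In the second, both homozygotes lay below both heterozygotes, while wild-type culture 2 lay between the homozygotes. The third (1445483_at), below the filter, was at 1.50 to 2.52.

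Ptk2b encodes Pyk2, the relative of focal adhesion kinase that responds to calcium. Probe set 1434653_at was at 6.80 and 7.30 in homozygotes, 7.49 and 6.81 in heterozygotes, and 6.67 and 7.22 in wild type. Probe set 1442927_at was at 5.0 and 6.0 in homozygotes, 5.99 and 5.66 in heterozygotes, and 6.03 and 5.72 in wild type. The genotypes overlapped in both, with homozygous culture 1 the lowest array of the second.

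**Figure D1:**
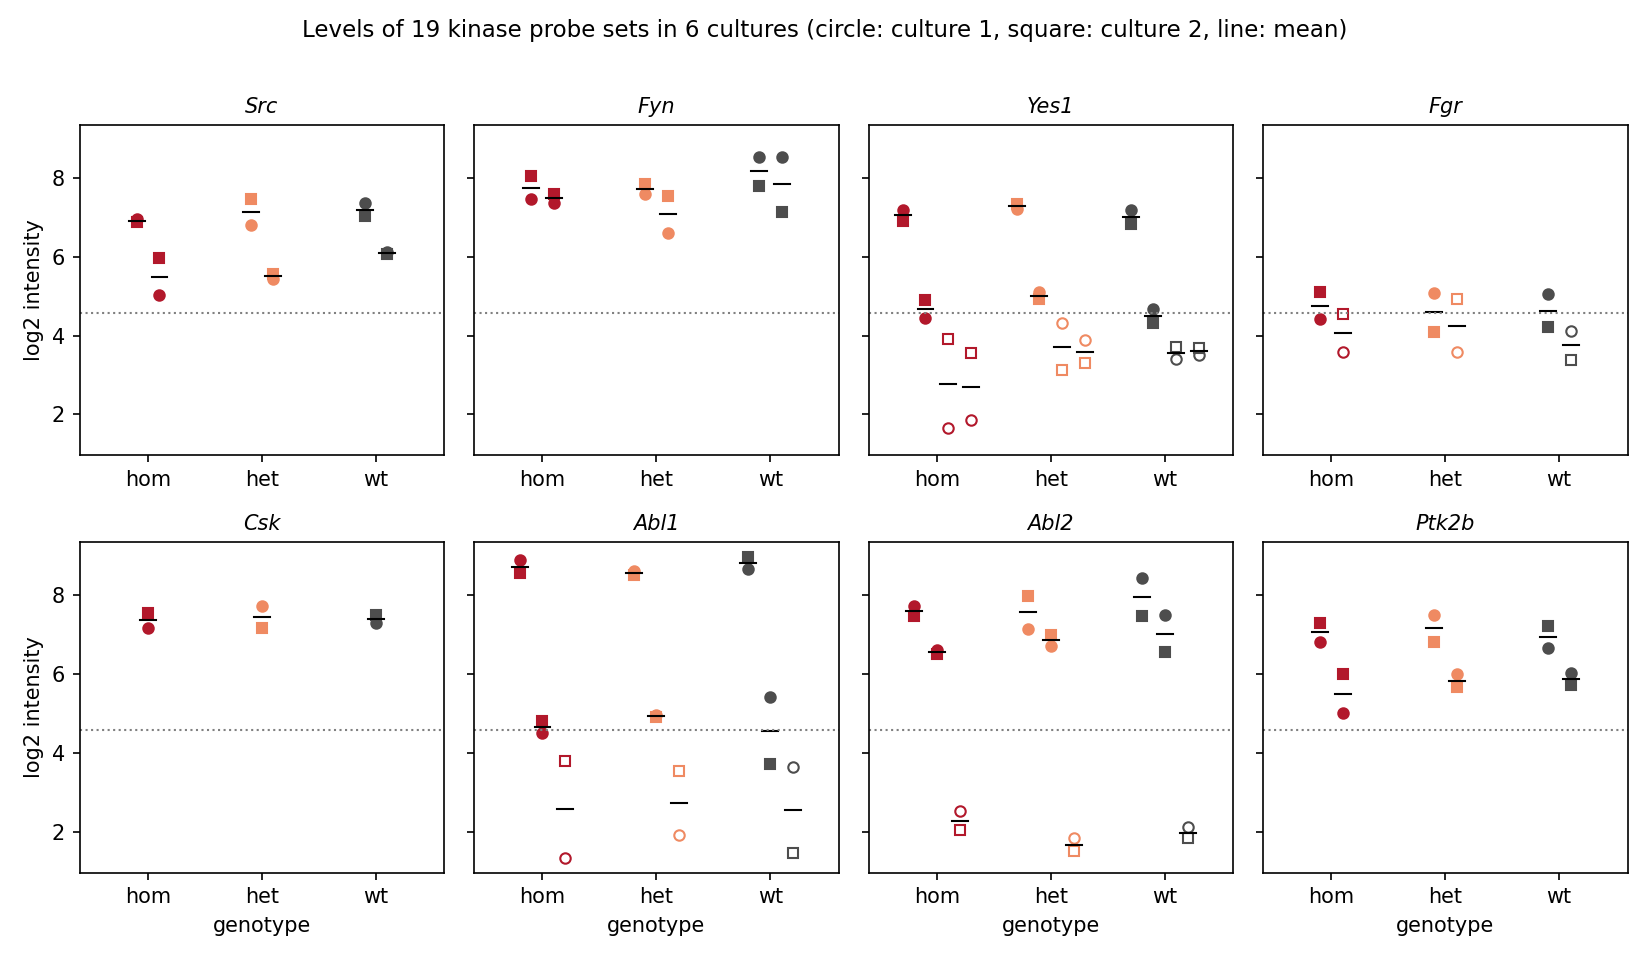
Log2 intensity (y axis) of the 19 kinase probe sets by genotype (x axis: hom, homozygous; het, heterozygous; wt, wild type), with a point for each culture and a black line at the mean of 2 cultures. Within a genotype the probe sets of a gene stand side by side in the order of the text, open symbols lie below the intensity filter and the dotted line marks its limit of 4.57; the cultures of a genotype are often farther apart than the genotype means.

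The comparison that the study was designed for set homozygotes against the wild-type and heterozygote means together. None of the 14 kinase probe sets past the filter was called (limma, Benjamini-Hochberg adjusted p = 1 for each), and 0 had an unadjusted p under 0.05, where 2.49% of all 22519 tested probe sets had one and 0% were called. The 14 passed by their mean over all 6 arrays, and the other 5 members were not tested. The differences were below 0 for 10 and above 0 for 4, where 49.3% of all tested probe sets were above 0, and ran from -0.38 to 0.14, with a median of -0.09 against -0.0039 over all tested probe sets. In 3 of the 14 the difference was larger than its standard error (SE).

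In none of the 14 did both homozygotes lie above or below the other 4 arrays, which 3.27% and 4.02% of all tested probe sets did. The furthest from 0 were Abl2 1455682_at, which averaged 6.56 ± 0.07 for homozygotes, 6.85 ± 0.20 for heterozygotes and 7.02 ± 0.66 for wild type (SD, n = 2 each; difference -0.38, SE 0.30, limma adjusted p = 1), and Ptk2b 1442927_at (-0.35, SE 0.32). Src 1450918_s_at differed by -0.25 (SE 0.25) and Src 1423240_at by -0.30 (SE 0.29). The Fyn probe sets differed by -0.19 (SE 0.30) and 0.02 (SE 0.45), and those of Yes1 by -0.09 (SE 0.21) and -0.08 (SE 0.23). Fgr differed by 0.14 (SE 0.40), Csk by -0.07 (SE 0.25), Abl1 by 0.04 (SE 0.21) and -0.09 (SE 0.46), Abl2 1455495_at by -0.15 (SE 0.36) and Ptk2b 1434653_at by 0.0034 (SE 0.30).

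A missed threshold does not show that the levels were equal, and the intervals give what the arrays could resolve. For Abl1 1423999_at the 95% confidence interval of the fold difference ran from 0.723 to 1.45, for Yes1 1449090_a_at from 0.661 to 1.34, for Csk from 0.632 to 1.45, and for Src 1450918_s_at from 0.550 to 1.29. For 7 of the 14 probe sets the interval stayed within 1 log2 unit of no change in both directions. It was widest for Abl1 1444134_at, from -1.20 to 1.02 on the log2 scale. The signs rested on single cultures, since 12 of the 14 differences changed sign when 1 culture or another was left out. With embryo sex as a covariate, 10 of the 14 changed sign. That fit draws mostly on how wild-type culture 1 and culture 2 differ, so it cannot separate sex from genotype. Abl1 1444134_at, at 5.41 and 3.70 in those cultures, was then at 1.46 (SE 0.34, limma adjusted p = 0.957).

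**Figure D2:**
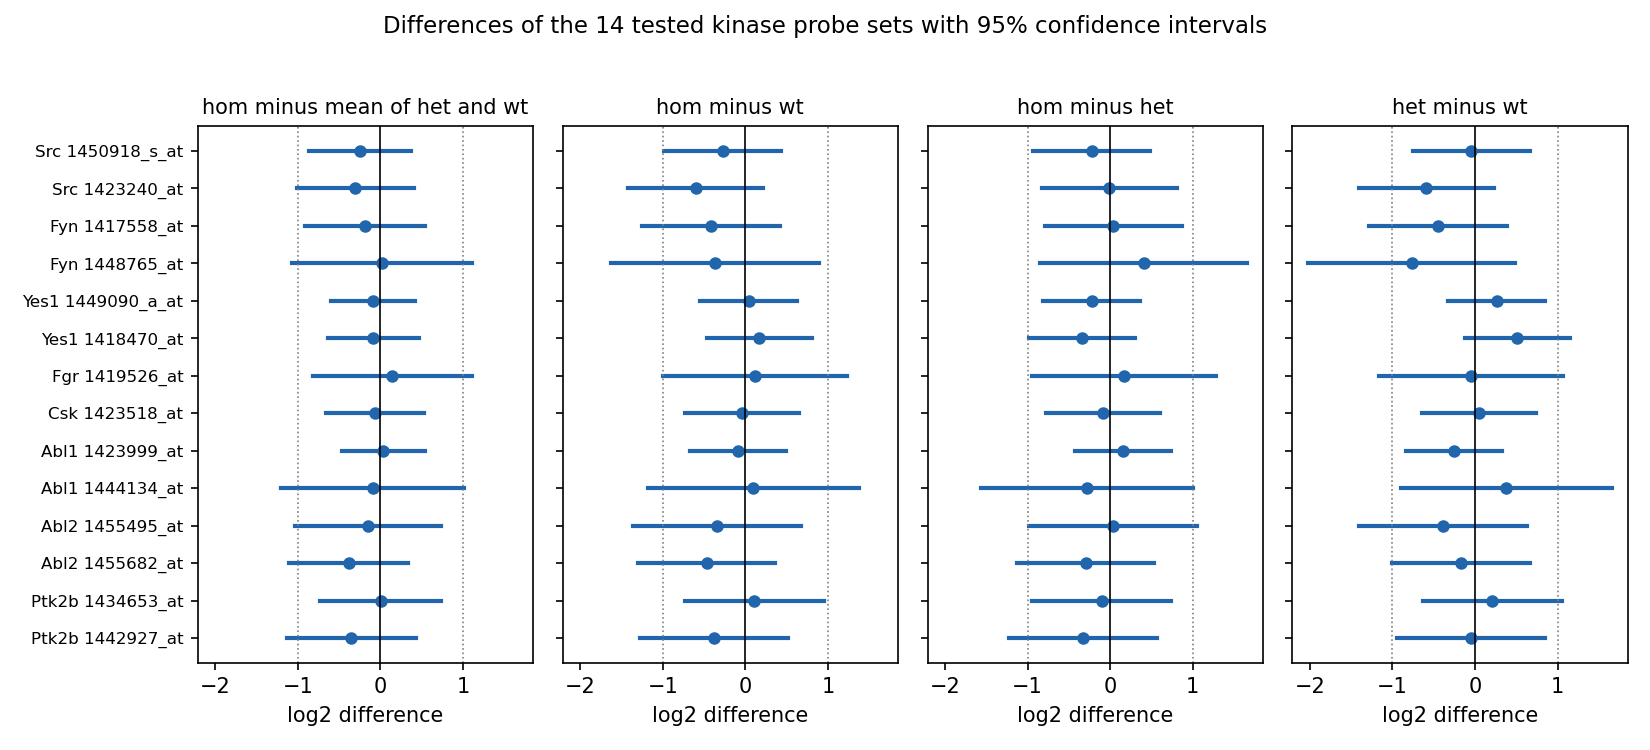
Log2 difference (x axis) of the 14 tested kinase probe sets (rows) in each comparison (panels), with the 95% confidence interval as a bar and dotted lines at 1 log2 unit either way. Every interval covers 0, and in the first panel the estimates lie between -0.38 and 0.14.

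Against wild type alone, 0 of the 14 probe sets were called and 0 had an unadjusted p under 0.05, which 3.8% of all tested probe sets had. The differences were above 0 for 5 of 14, where 47.9% of all tested probe sets were, with a median of -0.18 against -0.02 over all tested probe sets. Src was the gene whose homozygous and wild-type arrays did not overlap, in both probe sets, with both homozygotes lower, and 2 of 14 is close to the 14.9% of all tested probe sets that were separated in this direction. Both homozygotes lay above both wild types for 0 of the 14, against 13.3% of all tested probe sets. The differences were -0.27 (SE 0.29, limma adjusted p = 0.973) for 1450918_s_at and -0.60 (SE 0.34, limma adjusted p = 0.973) for 1423240_at. In 1423240_at the homozygotes were at 0.660-fold of wild type, with a 95% confidence interval of 0.374 to 1.16.

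Against heterozygotes alone, 0 of the 14 were called and 0 had an unadjusted p under 0.05, against 2.17% of all tested probe sets. Both homozygotes lay below both heterozygotes for 4 of the 14, where 12.8% of all tested probe sets did. These were both tested Yes1 probe sets (-0.22, SE 0.24 for 1449090_a_at, and -0.34, SE 0.26 for 1418470_at), Abl1 1444134_at (-0.28, SE 0.53) and Abl2 1455682_at (-0.30, SE 0.34), each with a limma adjusted p of 1. Both homozygotes lay above both heterozygotes for 0 of the 14, against 12% of all tested probe sets. The differences were above 0 for 5 of 14, and for 49.3% of all.

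Heterozygotes against wild type likewise gave 0 called and 0 with an unadjusted p under 0.05, which 5.26% of all tested probe sets had. Both heterozygotes lay above both wild types for 2 of 14, the Yes1 probe sets 1449090_a_at (0.26, SE 0.24, limma adjusted p = 0.871) and 1418470_at (0.51, SE 0.26, limma adjusted p = 0.838), where 17.9% of all tested probe sets did. They lay below for Src 1423240_at (-0.59, SE 0.34, limma adjusted p = 0.838) and Abl1 1423999_at (-0.25, SE 0.24, limma adjusted p = 0.875), where 19.3% of all tested probe sets did. The differences were above 0 for 5 of 14, and for 48.9% of all. The comparisons share arrays, so the Yes1 values against heterozygotes and those of heterozygotes against wild type rest on the same heterozygous cultures.

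Probe sets of 1 gene can match different transcript ends or exons, and whether they changed unequally between genotypes was asked from their difference within each array. Of 8659 such pairs in 5250 genes, 6 belonged to the kinases, each a dimmer probe set minus the brightest of its gene. None of the 6 was called in any of the 4 comparisons (limma), and 0 had an unadjusted p under 0.05. Over all pairs, 0% were called, and 3.73% had an unadjusted p under 0.05 in homozygotes against both other genotypes, 4.91% against wild type, 4.33% against heterozygotes, and 7.59% in heterozygotes against wild type.

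For homozygotes against both other genotypes, the within-array difference of the Ptk2b pair changed by -0.35 (SE 0.30, limma adjusted p = 1.00) and that of the Abl2 pair by -0.23 (SE 0.20). The Fyn pair changed by 0.21 (SE 0.29), the Abl1 pair by -0.13 (SE 0.54), the Src pair by -0.06 (SE 0.33) and the Yes1 pair by 0.0049 (SE 0.24). In the Ptk2b pair, 1442927_at minus 1434653_at was -1.81 and -1.30 in homozygotes, -1.51 and -1.15 in heterozygotes, and -0.63 and -1.50 in wild type. Homozygous culture 1 was the lowest and wild-type culture 1 the highest, and the other 4 lay between them.

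In none of the 6 pairs did both homozygotes lie above or below the other 4 arrays, which 4.89% and 5.58% of all pairs did. Single genotypes were separated in a few. Homozygotes lay below wild type for the Abl2 pair (-0.13, SE 0.23), as did 18.6% of all pairs, and below heterozygotes for the Abl1 pair (-0.44, SE 0.63), as did 14.1%. They lay above wild type, or above heterozygotes, for 0 of the 6, against 13.2% and 20.1% of all pairs. Heterozygotes lay below wild type for the Src pair (-0.54, SE 0.38, limma adjusted p = 0.759), as did 24.5% of all pairs, and above it for the Yes1 pair (0.25, SE 0.28), as did 13.5%. In the Src pair, 1423240_at minus 1450918_s_at was -1.94 and -0.91 in homozygotes, -1.37 and -1.91 in heterozygotes, and -1.23 and -0.96 in wild type.

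**Figure D3:**
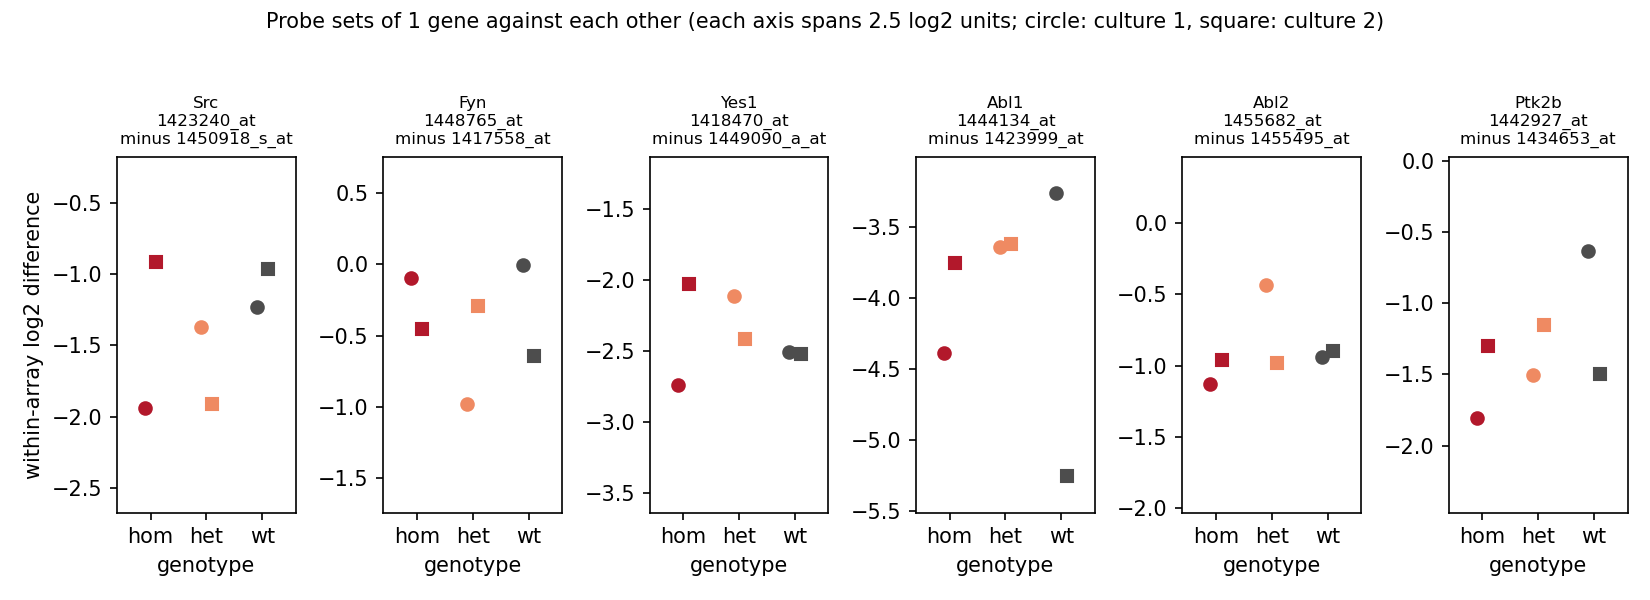
Within-array log2 difference (y axis) between probe sets of 1 gene, by genotype (x axis), for the 6 kinase pairs (panels), with a point for each culture. In each panel the homozygotes overlap with at least 1 other genotype, and the Abl1 pair spreads most within wild type, from -5.25 to -3.26.

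The spread between cultures of a genotype was set beside the range of the genotype means. The median difference between the cultures of a genotype over the 14 probe sets was 0.36 log2 units for homozygotes, 0.31 for heterozygotes and 0.45 for wild type, against 0.32, 0.28 and 0.34 over all tested probe sets. The range of the genotype means exceeded the largest such difference for 1 of the 14, Yes1 1418470_at, and for 20.4% of all tested probe sets. Setting means against the largest difference between single cultures favours the latter, and the variation was not split into parts.

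Wild-type culture 1 was the highest array for 7 of the 14 kinase probe sets and for 26.4% of all tested probe sets. Homozygous culture 1 was the lowest array for 4 of the 14 and for 22.1% of all. In that wild-type culture, the median of the 10 fibroblast markers, each set against its own mean over the 6 arrays, was -0.77, against 0.19 and -0.05 in homozygotes, 0.18 and 0.25 in heterozygotes, and -0.06 in the other wild type. Neural and glial markers, of which 4 were measured past the filter, were highest there at 1.03. They were at -1.08 and -0.23 in homozygotes, -0.11 and 0.71 in heterozygotes, and 0.33 in wild-type culture 2. Their part in the kinase levels was not tested.

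Abl2 and 1 of the Ptk2b probe sets ran in opposite directions within each genotype. Abl2, by both tested probe sets, was higher in homozygous culture 1, heterozygous culture 2 and wild-type culture 1 than in the other culture of the same genotype, as were Src 1450918_s_at and Yes1 1449090_a_at. Ptk2b 1434653_at and Csk were lower in each of the same cultures. These 4 and 2 of 14 probe sets were picked out after their values were seen, and 17.4% and 19.7% of all tested probe sets had the same patterns. Whether the kinases differ from these shares was not tested.

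The myeloid kinase Fgr was set beside the macrophage markers. The markers were highest in homozygous culture 1, with a median of 1.23 over 17 markers on the same relative scale, and lowest in wild-type culture 1, at -1.10. Fgr 1419526_at, at the edge of the filter, was lower in homozygous culture 1 (4.41) than in homozygous culture 2 (5.11). It was higher in wild-type culture 1 (5.05) than in wild-type culture 2 (4.23). The other Fgr probe set, below the filter, had a Pearson r of -0.04 with it over the 6 arrays. Whether Fgr ran with the markers was not tested, and levels this dim limit such a reading. The other marker levels were 0.20 in homozygous culture 2, -0.28 and -0.50 in heterozygotes, and 0.29 in wild-type culture 2.

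**Figure D4:**
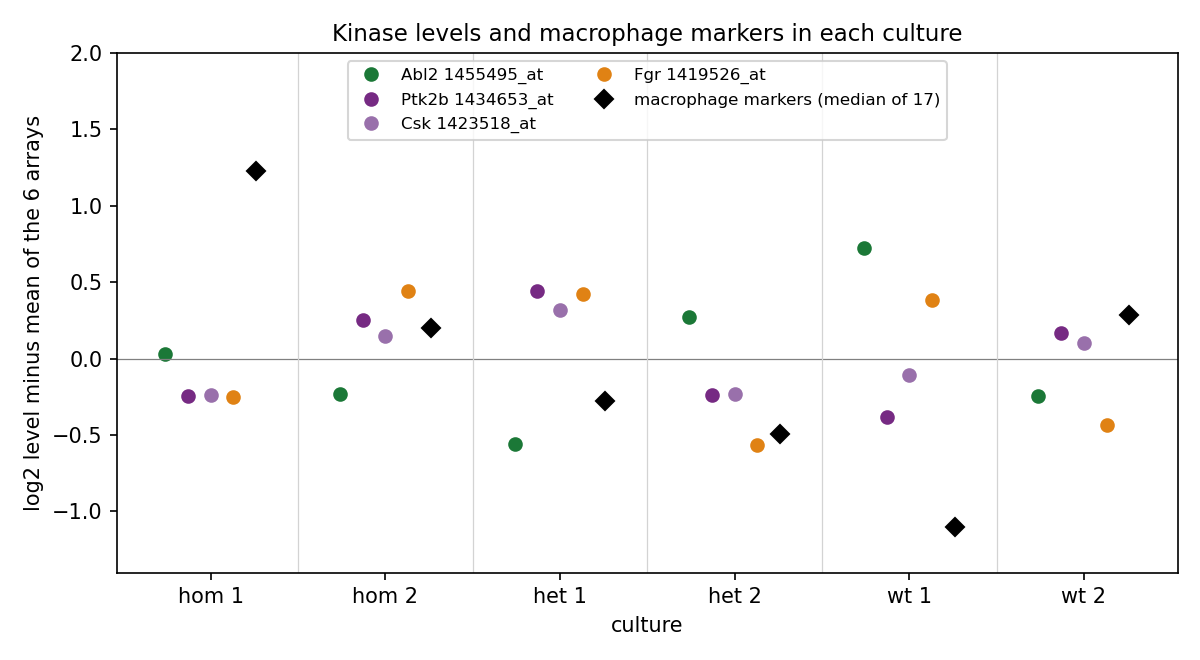
Log2 level minus the mean of the 6 arrays (y axis) in each culture (x axis) for Abl2, Ptk2b, Csk and Fgr probe sets, with the median of 17 macrophage markers as black diamonds. The markers range from -1.10 to 1.23, and Fgr, at the edge of the filter, is lower in homozygous culture 1 than in homozygous culture 2.

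By pattern over the 6 arrays, the genes most like each kinase were found among 11045 others, as a description. For Src they were Urb1, Caap1 and Fam120a (Pearson r of 0.988 to 0.990), for Fyn Ufd1, Apoo and Rpp14 (0.991 to 0.994), and for Yes1 Wnk1, Ubn2 and Esf1 (0.989 to 0.993). For Fgr they were Wdr73, Gins3 and Fbxw16 (0.958 to 0.982), and for Csk Acad8, B9d2 and Nkain4 (0.990 to 0.993). For Abl1 they were Xylt2, Rps14 and Tpt1 (0.963 to 0.985), for Abl2 Ier3, Cct6a and Ube2e1 (0.995 to 0.997), and for Ptk2b Cnpy3, Sorbs3 and Tmem186 (0.993 to 0.997). With 6 arrays such values are common, since 14 genes for Abl1 and up to 448 for Fyn had r above 0.9. These arrays share their cultures' overall differences, which enter every such value.

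Kinases related to the members were mostly dim. Of 11 other Src-type and adhesion kinases, 4 passed the filter, 3 of them lower in homozygotes than in both other genotypes together, 0 called and 0 with an unadjusted p under 0.05 (median difference -0.19, against -0.01 over all genes). The smallest p-values were those of Srms (-0.54, SE 0.41) and Syk (-0.33, SE 0.31), a kinase of immune receptor signalling. Btk, a kinase of B cells and macrophages, and Ptk6, a kinase of epithelia, lay below the filter and are named after their values were seen. Btk was at 5.66 and 4.80 in homozygotes, 3.80 and 2.66 in heterozygotes, and 2.65 and 2.93 in wild type, so that both homozygotes lay above the other 4 arrays. Without the filter its difference was 2.22 (SE 0.45, limma adjusted p = 0.557). Ptk6 was at 2.87 and 3.57 in homozygotes, 1.09 and 1.29 in heterozygotes, and 2.76 and 2.58 in wild type. Both homozygotes lay above the other 4 arrays, narrowly so over wild type (difference without the filter 1.29, SE 0.30, limma adjusted p = 0.642). Without the filter, the Ptk6 difference was 0.55 (SE 0.35, limma adjusted p = 0.972) from wild type. From heterozygotes it was 2.03 (SE 0.35, limma adjusted p = 0.531). The larger difference rests on the heterozygotes at 1.09 and 1.29, the dimmest Ptk6 levels, and levels this dim limit what it can show. Of all tested probe sets, 3.27% had both homozygotes above the other 4 arrays, a share that leaves out probe sets as dim as these. The other dim kinases of the list differed without the filter by -0.79 (SE 0.85) for Blk and 0.35 (SE 0.59) for Matk. The median of the 17 macrophage markers on the relative scale was 1.23 and 0.20 in homozygotes. It was -0.28 and -0.50 in heterozygotes, and -1.10 and 0.29 in wild type. The part of the macrophage markers in the Btk and Ptk6 levels was not tested.

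Regulators of Src and Abl activity, which include tyrosine phosphatases and ubiquitin ligases, gave 20 of 24 genes past the filter. Of these, 13 were higher and 7 lower in homozygotes than in both other genotypes together, with 0 called and a median of 0.06. An unadjusted limma p under 0.05 was found for 1 gene, where 2.49% of all tested probe sets had one. That gene was Ptpn6, the phosphatase SHP-1 of blood cells, at 6.36 and 6.33 in homozygotes, 5.46 and 5.20 in heterozygotes, and 4.73 and 6.01 in wild type (difference 0.99, SE 0.37, limma adjusted p = 1). Both homozygotes lay above the other 4 arrays, as in 3.27% of all tested probe sets. All 17 macrophage markers tested were also higher in homozygotes in this comparison (median difference 1.24), where 49.3% of all tested probe sets were. For 9 markers the unadjusted limma p was under 0.05, against 2.49% of all tested probe sets, and 0 were called. The median marker level on the relative scale was 1.23 and 0.20 in homozygotes, -0.28 and -0.50 in heterozygotes, and -1.10 and 0.29 in wild type. The part of the markers in the Ptpn6 level was not tested. Ptpre, a receptor-type phosphatase, was next (0.53, SE 0.26).

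Substrates and adaptors, the proteins that these kinases phosphorylate or that bind the phosphorylated sites, gave 33 of 35 genes past the filter, 16 higher and 17 lower, with 0 called, 0 with an unadjusted p under 0.05, and a median of -0.0029. Rapgef1, an exchange factor that binds Crk, had the smallest p-value (-0.50, SE 0.22, limma adjusted p = 1). It was at 7.24 and 7.50 in homozygotes, 7.59 and 7.96 in heterozygotes, and 8.14 and 7.81 in wild type. Both homozygotes thus lay below the other 4 arrays, as in 4.02% of all tested probe sets. The adhesion adaptor Pxn (-0.33, SE 0.25) and Bcar1 itself (-0.32, SE 0.31) were also lower in the estimate. Over the same 3 lists, 0 genes were called in the other 3 comparisons.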

How the data were processed

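Total RNA (2 µg per array) was labelled with biotin and hybridized to Affymetrix mouse arrays, per the labels' protocols. The deposited values are linear intensities of 45101 probe sets. How probes were summarised or scaled is not stated there, and detection calls were not used. The number of arrays limits the precision.

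Intensities were taken to log2(intensity + 1.78), the pseudocount being the 10th percentile of all values, which understates changes of dim probe sets. Array medians spanned 0.29, above 0.1, so arrays were quantile normalized. After 64 controls were left out, the upper 50% by mean level (22519) were tested with limma 3.58.1 in R 4.3.3, with a mean per genotype over all 6 arrays, 3 residual and 3.28 prior degrees of freedom, and Benjamini-Hochberg adjustment (threshold 0.05, two-sided). Probe-set usage was tested likewise on within-array differences from each gene's brightest probe set. The scripts were tested on simulated data.

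Probe sets with 1 annotated symbol, updated through Entrez identifiers to GRCm38.p6, were named (34945, with 932 naming several genes and 9160 none). All kinase probe sets were named, with the most alike genes, Bcar1, and at most 2 tested genes of each pathway list by p-value. Btk and Ptk6 were added after their values were seen, and Blk and Matk as the other dim kinases of their list. The kinases, lists and tests were chosen with earlier results of these data known. Marker lists covered fibroblast, macrophage, neural and glial, endothelial and epithelial genes. Of the last pair, 3 of 6 and 3 of 4 passed the filter, with median differences of 0.26 and -0.40 in homozygotes against both other genotypes and 0 called.

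Replicate numbers of the titles were checked for pairing by correlating the differences between cultures 1 and 2 of the genotypes over 22519 probe sets. The correlations were -0.14, -0.14 and -0.36, so the numbers were not taken to pair cultures. Alternatives were median centring, no normalization, a pseudocount of 16, no filter, each array left out, a replicate block, a covariate for embryo sex, and limma's diffSplice for usage.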

Additional observations from a re-analysis of the deposited data

How the results depend on the processing

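In the 4 comparisons, 0 of the 14 tested kinase probe sets and 0 of the 6 usage pairs were called under any of the 12 alternatives (smallest limma adjusted p = 0.226 for the levels and 0.343 for usage). The directions were less firm. Leaving out 1 culture in turn, the differences of homozygotes from both other genotypes that changed sign ranged as follows: Abl1 1423999_at -0.13 to 0.20, Abl1 1444134_at -0.52 to 0.056, Abl2 1455495_at -0.39 to 0.089, Csk 1423518_at -0.26 to 0.13, Fgr 1419526_at -0.10 to 0.49, Fyn 1417558_at -0.48 to 0.11, Fyn 1448765_at -0.33 to 0.36, Ptk2b 1434653_at -0.24 to 0.25, Ptk2b 1442927_at -0.85 to 0.15, Src 1423240_at -0.77 to 0.17, Yes1 1418470_at -0.30 to 0.13, Yes1 1449090_a_at -0.23 to 0.048. The usage differences that changed sign ranged as follows: Abl1 1444134_at -0.63 to 0.19, Src 1423240_at -0.57 to 0.46, Yes1 1418470_at -0.35 to 0.36. With the covariate for embryo sex, which draws mostly on how wild-type culture 1 and culture 2 differ, signs turned for Abl1 1423999_at -0.27, Abl1 1444134_at 1.46, Abl2 1455495_at 0.68, Abl2 1455682_at 0.43, Fyn 1417558_at 0.58, Ptk2b 1434653_at -0.41, Ptk2b 1442927_at 0.088, Src 1450918_s_at 0.039, Yes1 1418470_at 0.30, Yes1 1449090_a_at 0.17, and in usage for Abl1 1444134_at 1.74, Ptk2b 1442927_at 0.50. For Abl1 1444134_at the unadjusted limma p with the covariate was 0.00598 (adjusted p = 0.957). In homozygotes against heterozygotes the covariate turned 8 of the 14 differences (Src 1450918_s_at 0.19, Src 1423240_at 0.29, Yes1 1449090_a_at 0.16, Yes1 1418470_at 0.21, Abl1 1423999_at -0.28, Abl1 1444134_at 1.95, Abl2 1455682_at 0.88, Ptk2b 1442927_at 0.31) and 3 of the 6 in usage (Yes1 1418470_at 0.053, Abl1 1444134_at 2.24, Ptk2b 1442927_at 1.01). In homozygotes against wild type it turned 4 (Fyn 1417558_at 0.022, Fyn 1448765_at 0.36, Abl2 1455495_at 0.12, Ptk2b 1434653_at -0.12) and 0 in usage. In heterozygotes against wild type it turned 2 (Abl1 1423999_at 0.021, Abl1 1444134_at -0.98) and 1 in usage (Abl1 1444134_at -1.0). In homozygotes against both other genotypes, median centring turned Abl1 1423999_at -0.0024, Fyn 1448765_at -0.0048, and no normalization turned Abl1 1423999_at -0.043, Fyn 1448765_at -0.045, Ptk2b 1434653_at -0.017, and the cause was not tested for any of these turns. Without wild-type culture 1 the Src 1423240_at difference from wild type stayed negative, and without homozygous culture 1 it was -0.13, against -1.07 without homozygous culture 2.

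Over all probe sets, limma calls ranged from 0 to 2 in homozygotes against both other genotypes, 0 to 3 against heterozygotes, 0 to 3 in heterozygotes against wild type, and 0 against wild type when 1 culture was left out. Without wild-type culture 2 there were 2 calls in homozygotes against both other genotypes and 2 against heterozygotes. Without wild-type culture 1 there were 3 in homozygotes against heterozygotes and 3 in heterozygotes against wild type. The covariate gave 1 call in heterozygotes against wild type. With the replicate block the count of calls was 0 in each comparison and the differences were the same. Without the filter, the 5 dim kinase probe sets also gave adjusted p = 1 in homozygotes against both other genotypes. The dim probe sets near or below the filter limit what can be said of Fgr and of the second Abl1 and Yes1 probe sets.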
